A study of Mus musculus with 6 samples.

Results

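Postnatal GABAergic amacrine cells, the inhibitory interneurons of the inner retina that use GABA, were picked out of single-cell RNA-sequencing of the developing mouse retina by a gate on raw unique molecular identifier (UMI) counts. A cell barcode was kept with 300 to 6000 genes and at most 15% mitochondrial UMIs. A kept cell was a member with at least 1 UMI of *Tfap2b*, at least 2 UMIs of *Gad1* and *Gad2* together, and 0 UMIs of *Slc6a9*, *Ptf1a*, *Prdm13*, *Lhx1*, *Chat*, *Slc18a3* and *Mki67*. The gate found 887 members among 39423 kept postnatal cells, with 57690 kept cells in the whole series. The members were thus chosen by the measured UMI counts of these 10 genes, whose levels are given as a description, with no test. All other genes were outside the gate but were measured in the same cells.

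The libraries were made from neurosensory retinas of wild-type C57BL/6J mice, pooled from 4 to 8 retinas each, dissociated with papain and sorted for live cells without DAPI stain. One library each covered P0 and P6, the days of birth and 6 days after it, and 2 libraries covered P3. Embryonic libraries at E14 and E16 were used only to count cells that pass the gate. With 1 library at P0 and at P6, levels at these ages are descriptions of single libraries, while members were compared with other cells within each library, so that 4 libraries of 3 ages served as replicates.

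Amacrine cells receive input from bipolar cells and shape the signals that reach retinal ganglion cells. The GABAergic types make GABA from glutamate with the decarboxylases encoded by *Gad1* and *Gad2*, load it into vesicles with the transporter encoded by *Slc32a1*, and clear it with transporters of the plasma membrane. The glycinergic types take up glycine with the transporter encoded by *Slc6a9*, starburst cells also use acetylcholine and carry *Chat* and *Slc18a3*, horizontal cells carry *Lhx1*, and *Ptf1a* and *Prdm13* mark the precursors of these interneurons. The AP-2 transcription factor encoded by *Tfap2b* is expressed by postmitotic amacrine and horizontal cells.

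The sequences upstream of the 3 genes that make and pack GABA are shown because AP-2 factors bind a known palindrome and *Tfap2b* is part of the gate. Each runs 5′ to 3′ on the gene's strand, from 250 bases before to 50 bases after the start of transcription in RefSeq on GRCm38.p6, and capitals mark matches to the AP-2 palindrome GCCNNNGGC, searched on both strands. *Gad1* lies at chr2:70561879-70562178 (plus strand), *Gad2* at chr2:22622077-22622376 (plus strand) and *Slc32a1* at chr2:158610508-158610807 (plus strand).
Gad1: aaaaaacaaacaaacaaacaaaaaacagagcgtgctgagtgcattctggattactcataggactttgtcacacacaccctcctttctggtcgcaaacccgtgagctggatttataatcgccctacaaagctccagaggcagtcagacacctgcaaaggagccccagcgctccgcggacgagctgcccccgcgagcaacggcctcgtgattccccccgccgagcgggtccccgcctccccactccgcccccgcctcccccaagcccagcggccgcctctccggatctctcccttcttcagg
Gad2: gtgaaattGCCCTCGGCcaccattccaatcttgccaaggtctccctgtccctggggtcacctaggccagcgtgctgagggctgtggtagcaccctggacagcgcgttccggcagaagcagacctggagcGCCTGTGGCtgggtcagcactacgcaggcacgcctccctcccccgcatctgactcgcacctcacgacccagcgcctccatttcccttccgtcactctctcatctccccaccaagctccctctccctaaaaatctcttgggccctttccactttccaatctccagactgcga
Slc32a1: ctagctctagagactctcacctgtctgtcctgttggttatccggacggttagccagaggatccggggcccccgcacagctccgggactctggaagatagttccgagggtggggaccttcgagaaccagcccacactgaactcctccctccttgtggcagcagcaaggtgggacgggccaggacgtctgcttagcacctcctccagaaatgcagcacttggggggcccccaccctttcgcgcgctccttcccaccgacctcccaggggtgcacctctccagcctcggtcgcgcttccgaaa
The window of *Gad2* held 2 matches, and those of *Gad1* and *Slc32a1* held 0. Of 27025 RefSeq promoter windows of this length, 4461 (16.5%) held at least 1 match. The core letters of the MEIS motif, TGACAG, were in 0 of these 3 windows and in 5212 of all windows (19.3%). A match shows only that these letters are present.

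Members were most frequent at P0 and least frequent at P6. The P0 library held 554 among 10407 kept cells (5.32%, 95% exact Clopper-Pearson interval 4.90% to 5.77%). P3 replicate 1 held 194 among 12303 (1.58%, 1.36% to 1.81%) and P3 replicate 2 held 81 among 3113 (2.60%, 2.07% to 3.22%). The P6 library held 58 among 13600 (0.426%, 0.324% to 0.551%). The 4 intervals did not overlap, although the intervals cover counting error only and the P3 libraries also differed from each other. When every cell was thinned to 2000 UMIs the shares were 1.86%, 0.594%, 0.771% and 0.178% in the same order, so P0 kept the highest and P6 the lowest share. With at least 3 decarboxylase UMIs required the shares were 3.16%, 0.894%, 0.803% and 0.162%, and P3 replicate 2 was then no longer above P3 replicate 1. Thinning left out 272, 1197, 0 and 1821 shallower kept cells of these libraries.

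**Figure D1:**
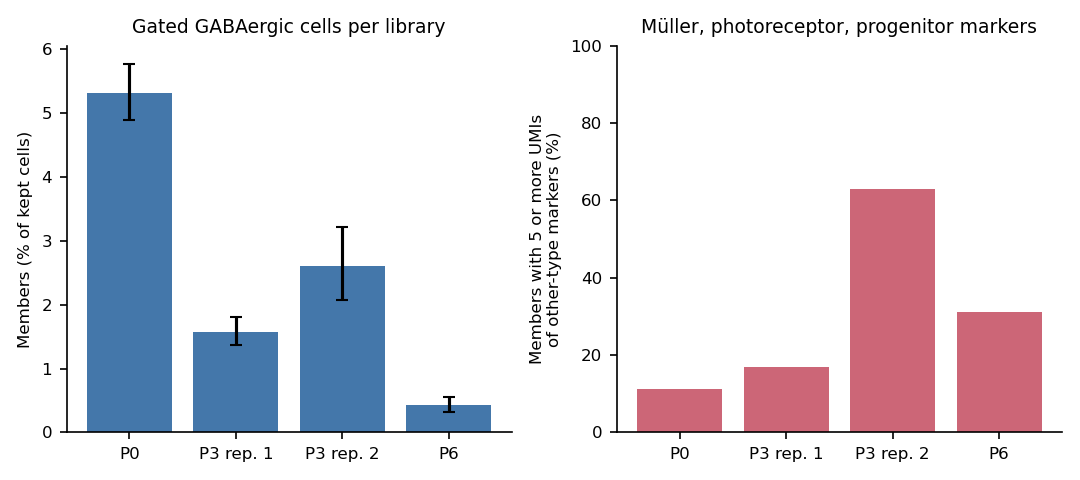
Left, members as a percentage of kept cells in each library, with exact 95% intervals for counting error as bars. Right, the percentage of members with 5 or more UMIs summed over 23 markers of Müller glia, photoreceptors and progenitors. The share of members was 5.32% at P0 and 0.426% at P6, and P3 replicate 2 stood apart with 63.0% of its members above the marker limit.

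P3 replicate 2 stood apart from the other postnatal libraries. Its counts were made on an older gene annotation, and *Tfap2b* had a UMI in 1417 of its 3113 kept cells, against 7.53% to 21.1% of kept cells in the other postnatal libraries. Levels of genes are given as CPM, the gene's share of all UMIs of a group scaled to a common total, and 4 values in a row are those of P0, both P3 replicates in order, and P6. The 8 retinal ganglion cell markers summed to 829 CPM in the members of P3 replicate 2, against 165 at P0, 165 in the other P3 library and 77.4 at P6. Of its 81 members, 51 (63.0%) held 5 or more UMIs of 23 markers of Müller glia, photoreceptors and progenitors, against 62 (11.2%) at P0, 33 (17.0%) in the other P3 library and 18 (31.0%) at P6. Summed over the members of P0, both P3 libraries and P6 in turn, the Müller glia markers reached 184, 158, 326 and 1108 CPM, the progenitor markers 268, 235, 1514 and 755 CPM, and the photoreceptor markers 135, 559, 461 and 681 CPM. In all other kept cells the Müller glia markers were at 595, 1039, 519 and 1805 CPM, the progenitor markers at 5306, 3927, 2274 and 2666 CPM, and the photoreceptor markers at 271, 1994, 1685 and 4659 CPM. For these 3 lists the members were below the other cells of their own library, and the Müller glia and progenitor markers were higher in the P6 and P3 replicate 2 members than in those of the other libraries. Ganglion cell and microglia markers did not follow that pattern. In the other cells the ganglion cell markers were at 531, 26.0, 828 and 13.9 CPM, so that the members were higher in P3 replicate 1 and at P6 and nearly level in P3 replicate 2. Microglia markers were at 47.9 CPM in the members of P3 replicate 2, against 11.4 CPM in its other cells, and at 0 to 0.823 CPM in the members elsewhere. Called doublets were 73 of the 887 members (40, 23, 2 and 8) and stayed in. No member barcode was shared between libraries, and the pairs of libraries shared 0 to 68 kept barcodes.

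Amacrine genes that the gate did not use were found in most members. *Pax6*, which encodes a paired homeobox factor kept on in amacrine cells, had a UMI in 861 of the 887 members, *Meis2*, a homeobox gene of GABAergic amacrine cells, in 764, and *Tfap2a*, the closest AP-2 relative of *Tfap2b*, in 721. On GRCm38 with the GENCODE vM21 annotation, *Pax6* lies at chr2:105668900-105697364 (plus strand), *Meis2* at chr2:115863064-116065839 (minus strand) and *Tfap2a* at chr13:40715302-40738376 (minus strand). *Slc32a1* had a UMI in 365. Kept cells without *Tfap2b* held a UMI of *Pax6* in 79.8%, 51.3%, 81.8% and 38.6%, so *Pax6* separated members from them little at P0 and in P3 replicate 2. In the same cells *Tfap2a* was in 1.18% to 6.72% and *Slc32a1* in 0.938% to 2.00%. The 554, 194, 81 and 58 members summed to 3423424, 1225872, 544280 and 326006 UMIs, with median depths of 5794.5, 5989.5, 5645 and 5368 UMIs per member, so values at P6 rest on the fewest UMIs.

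Among the gate genes, *Tfap2b* reached 1712 CPM at P0, 3061 and 1829 in the P3 libraries and 2571 at P6 in members and 1026, 921, 609 and 656 CPM in the other cells that carried it. *Gad1* was at 138 CPM at P0, 156 and 160.3 in the P3 libraries and 167 at P6, against 2.83, 4.07, 2.87 and 1.44 CPM in the cells without *Tfap2b*. *Gad2* was at 458 CPM at P0, 388 and 223 in the P3 libraries and 328 at P6, against 45.3, 28.7, 16.6 and 29.5 CPM without *Tfap2b*. *Gad1* varied little between libraries while *Gad2* was highest at P0 and lowest in P3 replicate 2. UMIs of both decarboxylases were seen in 297 members, of *Gad2* alone in 441 and of *Gad1* alone in 149.

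Many members lay near the limits of the gate. Exactly 2 UMIs of the decarboxylases were held by 401 members, and 709 cells that otherwise qualified had only 1 and were left out. Exactly 1 UMI of *Tfap2b* was held by 77 members. A further 466 cells had 2 or more decarboxylase UMIs, none of the excluded genes and no *Tfap2b*. Of 1784 cells with *Tfap2b* and 2 or more decarboxylase UMIs, the excluded genes removed 439 at P0, 204 and 180 in the P3 libraries and 74 at P6, and 193 of these had just 1 UMI of an excluded gene. *Prdm13* was present in 532 of the removed cells, *Ptf1a* in 367, *Mki67* in 274, *Slc6a9* in 181, *Slc18a3* in 115, *Chat* in 48 and *Lhx1* in 16.

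The first comparison set the members against the other 6098 kept cells with *Tfap2b*, which had fewer decarboxylase UMIs or a UMI of an excluded gene. Members held higher levels of the GABA transporter genes *Slc32a1* and *Slc6a11*, of the transcription factor genes *Tfap2a*, *Tfap2e* and *Meis2*, and of many glutamate and GABA receptor, vesicle release and synaptic adhesion genes. They held lower levels of most immediate early and photoreceptor genes listed and of *Nfib* and *Nfix*. In edgeR's quasi-likelihood test on UMI sums per library, with the library as a block and Benjamini-Hochberg adjustment over 12558 genes, 1092 genes (8.7%) were higher and 1584 (12.6%) were lower in members at an adjusted p under 0.05. The median log2 fold change over all tested genes was -0.06. Without P3 replicate 2, 857 genes were higher and 1211 lower. Without P3 replicate 1, the counts were 444 and 736. Gating again after every cell was thinned to 2000 UMIs left 300 members, and cells with *Tfap2b* whose decarboxylase UMIs were thinned below 2 then counted among the comparison cells. In that setting 56 genes were higher and 279 lower, and *Meis2* (0.43), *Nr4a2* (0.43), *Tfap2e* (0.41), *Slc32a1* (0.56), *Slc12a5* (0.48) and *Nrxn2* (0.39), named by their log2 fold changes, no longer passed.

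Of 5 genes for GABA handling other than the decarboxylases, 2 rose, 0 fell and the median log2 fold change was 0.0060. *Slc32a1*, the vesicular GABA transporter, was at 82.2 CPM at P0, 139 and 60.8 in the P3 libraries and 198 at P6 in members and at 53.2, 46.7, 38.2 and 37.6 CPM in the other *Tfap2b* cells (log2 fold change 1.22 ± 0.25, edgeR adjusted p = 0.00612). Members were higher in all 4 libraries, with the smallest ratio at P0. *Slc6a11*, a GABA transporter of the plasma membrane, was at 64.2 CPM at P0, 83.9 and 66.3 in the P3 libraries and 145 at P6 against 33.2, 30.3, 35.1 and 36.2 CPM (log2 fold change 1.24 ± 0.19, edgeR adjusted p = 0.00127). For *Slc6a11* the groups did not overlap over the 4 libraries. *Abat*, the GABA transaminase that breaks GABA down, did not pass the test (log2 fold change -0.06 ± 0.25, edgeR adjusted p = 0.915), and neither did *Slc6a13* and *Aldh5a1*.

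**Figure D2:**
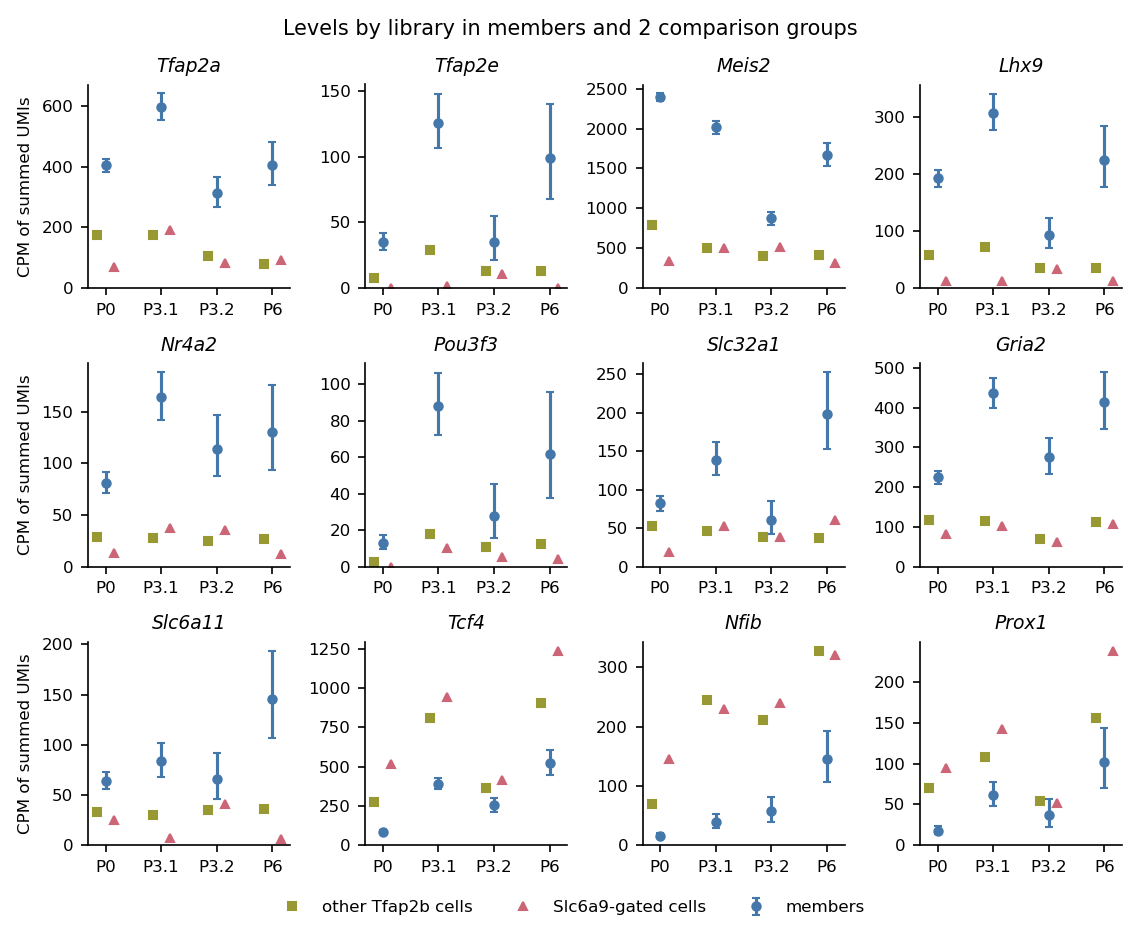
CPM of summed UMIs of 12 genes in each library for members (circles, bars are 95% Poisson intervals for counting error), the other cells with *Tfap2b* (squares) and cells gated for *Slc6a9* (triangles), with P3.1 and P3.2 for P3 replicates 1 and 2. The members lie above both other groups for *Tfap2a*, *Tfap2e*, *Meis2*, *Lhx9*, *Nr4a2*, *Pou3f3*, *Slc32a1*, *Gria2* and *Slc6a11* in each library, and below the other *Tfap2b* cells for *Tcf4*, *Nfib* and *Prox1*.

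Transcription factors moved in both directions. Of 46 amacrine transcription factors, 15 rose and 13 fell, with a median log2 fold change of -0.31. *Meis2* was at 2394 CPM at P0, 2017 and 873 in the P3 libraries and 1668 at P6 in members and 788, 502, 406 and 417 CPM in the other *Tfap2b* cells (log2 fold change 1.61 ± 0.15, edgeR adjusted p = 0.000177). *Tfap2a* was at 404 CPM at P0, 596 and 313 in the P3 libraries and 405 at P6 against 174, 173, 104 and 78.7 CPM (log2 fold change 1.63 ± 0.16, edgeR adjusted p = 0.000203). The lowest member level of each gene was above the highest level of the other cells. *Tfap2e*, a further AP-2 gene, was at 34.8 CPM at P0, 126 and 35 in the P3 libraries and 99 at P6 against 7.78, 29, 12.7 and 12.8 CPM (log2 fold change 2.09 ± 0.22, edgeR adjusted p = 0.000259), while *Tfap2c*, another AP-2 gene, did not pass the test (log2 fold change -0.61 ± 0.23, edgeR adjusted p = 0.0797). Of these 3 AP-2 genes outside the gate, 2 were higher in members, and *Tfap2e* is not among the 46 counted factors.

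*Lhx9*, a LIM homeobox gene, was at 193 CPM at P0, 309 and 94 in the P3 libraries and 226 at P6 in members and 58.2, 72, 35.5 and 35 CPM in the other *Tfap2b* cells (log2 fold change 1.90 ± 0.19, edgeR adjusted p = 0.000205). *Nr4a2*, an orphan nuclear receptor gene, was at 81 CPM at P0, 164 and 114 in the P3 libraries and 130.0 at P6 against 28.2, 27.9, 24.6 and 26.6 CPM (log2 fold change 2.05 ± 0.17, edgeR adjusted p = 9.86e-05), and *Pou3f3*, a POU homeobox gene, at 13 CPM at P0, 88 and 27.6 in the P3 libraries and 61.9 at P6 against 2.45, 18, 10.8 and 12.6 CPM (log2 fold change 2.04 ± 0.23, edgeR adjusted p = 0.000335). Levels of *Lhx9* and *Nr4a2* did not overlap between the groups, whereas *Pou3f3* at P0 in members was below the P3 replicate 1 level of the other cells. *Pax6* rose by less (log2 fold change 0.58 ± 0.09, edgeR adjusted p = 0.00129), and the homeobox gene *Barhl2* (log2 fold change 1.10 ± 0.15, edgeR adjusted p = 0.000721), the LIM-only gene *Lmo4* (log2 fold change 1.34 ± 0.19, edgeR adjusted p = 0.000924) and the basic helix-loop-helix gene *Bhlhe22* (log2 fold change 1.07 ± 0.18, edgeR adjusted p = 0.00219) also rose.

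The transcription factors that fell included the E-protein gene *Tcf4*, at 87.2 CPM at P0, 392 and 254 in the P3 libraries and 523 at P6 in members and 274, 809.6, 363 and 907 CPM in the other *Tfap2b* cells (log2 fold change -1.09 ± 0.15, edgeR adjusted p = 0.000709). *Nfib*, a nuclear factor I gene of late retinal progenitors, was at 16.2 CPM at P0, 39.5 and 57.1 in the P3 libraries and 145 at P6 against 68.7, 244, 211 and 327 CPM (log2 fold change -2.03 ± 0.20, edgeR adjusted p = 0.000205), and its relative *Nfix* had a log2 fold change of -2.03, while *Nfia* did not pass the test (log2 fold change -0.64 ± 0.28, edgeR adjusted p = 0.129). Members were lower in each library for *Tcf4*, *Nfib* and *Nfix*, and within each group P0 had the lowest *Tcf4* and *Nfib*. *Prox1*, which glycinergic amacrine and horizontal cells express, also fell (log2 fold change -1.12 ± 0.21, edgeR adjusted p = 0.00395), as did *Neurod1* (log2 fold change -0.84 ± 0.19, edgeR adjusted p = 0.00838) and *Pou3f2* (log2 fold change -2.06 ± 0.25, edgeR adjusted p = 0.000521). The precursor genes *Foxn4*, *Dlx1* and *Dlx2* had log2 fold changes of -3.09, -3.52 and -3.55, in a contrast where cells with the precursor genes *Ptf1a* and *Prdm13* were kept out of the members. *Dlx1* and *Dlx2* no longer passed the test without P0.

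Receptor genes rose more often than they fell. Of 14 ionotropic glutamate receptor genes tested, 10 rose and 1 fell, with a median log2 fold change of 1.31. *Gria2*, the AMPA receptor subunit that limits calcium entry, was at 224 CPM at P0, 436 and 276 in the P3 libraries and 415 at P6 in members and 118, 114, 68.6 and 112 CPM in the other *Tfap2b* cells (log2 fold change 1.60 ± 0.16, edgeR adjusted p = 0.000224), with no overlap. The other AMPA subunit genes *Gria1*, *Gria3* and *Gria4* had log2 fold changes of 1.56, 1.55 and 1.36, and the NMDA subunit gene *Grin2b* 1.26. The kainate subunit gene *Grik3* fell (log2 fold change -1.48 ± 0.41, edgeR adjusted p = 0.0260). Of 12 tested GABA receptor genes 6 rose and 1 fell, with a median of 0.92. They included *Gabra2*, a subunit of the GABA-gated chloride channel (log2 fold change 1.15 ± 0.17, edgeR adjusted p = 0.000998), and the GABA-B receptor gene *Gabbr1* (log2 fold change 0.89 ± 0.14, edgeR adjusted p = 0.00138), while *Gabrd*, a delta subunit gene, fell with a log2 fold change of -4.16. Of 4 glycine transport and receptor genes tested only *Glra2*, the glycine receptor alpha 2 subunit, rose (log2 fold change 1.55 ± 0.17, edgeR adjusted p = 0.000295). It was at 45.7 CPM at P0, 53.5 and 51.6 in the P3 libraries and 49.5 at P6 in members and 14.6, 17.9, 18 and 13.8 CPM in the other *Tfap2b* cells.

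*Slc12a5* encodes KCC2, the transporter that exports chloride and sets the sign of the response to GABA. It was at 61.3 CPM at P0, 72.4 and 44.2 in the P3 libraries and 114 at P6 in members and 26.2, 19.1, 22.9 and 22.6 CPM in the other *Tfap2b* cells (log2 fold change 1.52 ± 0.22, edgeR adjusted p = 0.000978), with no overlap over the libraries. *Slc12a2*, which encodes the chloride importer NKCC1, was at 11.8 CPM at P0, 10.7 and 5.53 in the P3 libraries and 3.09 at P6 against 16.2, 19.1, 10.6 and 23 CPM and did not pass the test (log2 fold change -0.89 ± 0.29, edgeR adjusted p = 0.0529). Of 6 chloride transport genes 2 rose and 0 fell, although the median log2 fold change of the list was -0.40.

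Genes of the synapse passed the test more often as higher than as lower in members. Of 26 genes of transmitter release 12 rose and 3 fell (median log2 fold change 0.66). *Syt7*, a slow calcium sensor of vesicle fusion, was at 84.2 CPM at P0, 174 and 144 in the P3 libraries and 235 at P6 in members and 36.9, 27.9, 34.3 and 21.6 CPM in the other *Tfap2b* cells (log2 fold change 2.19 ± 0.28, edgeR adjusted p = 0.000609). *Sv2b*, a synaptic vesicle glycoprotein gene, went the other way, with 7.66 CPM at P0, 11.5 and 12.9 in the P3 libraries and 6.19 at P6 against 28.9, 45.4, 69.3 and 84.6 CPM (log2 fold change -2.29 ± 0.23, edgeR adjusted p = 0.000224), and so did *Cplx3*, a complexin of ribbon synapses, with 25.3 CPM at P0, 43.6 and 86.6 in the P3 libraries and 80.5 at P6 against 93.2, 204, 149 and 359 CPM (log2 fold change -1.84 ± 0.20, edgeR adjusted p = 0.000293). The groups did not overlap for *Syt7*, *Sv2b* and *Cplx3*. Of 14 genes of inhibitory scaffolds and synaptic adhesion 10 rose and 1 fell (median 0.96). *Nrxn2*, a presynaptic neurexin, had a log2 fold change of 1.64, *Nlgn2*, the neuroligin of inhibitory synapses, 1.00 and *Gphn*, the scaffold gephyrin, 0.62. *Gphn* did not pass the test without P3 replicate 1.

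**Figure D3:**
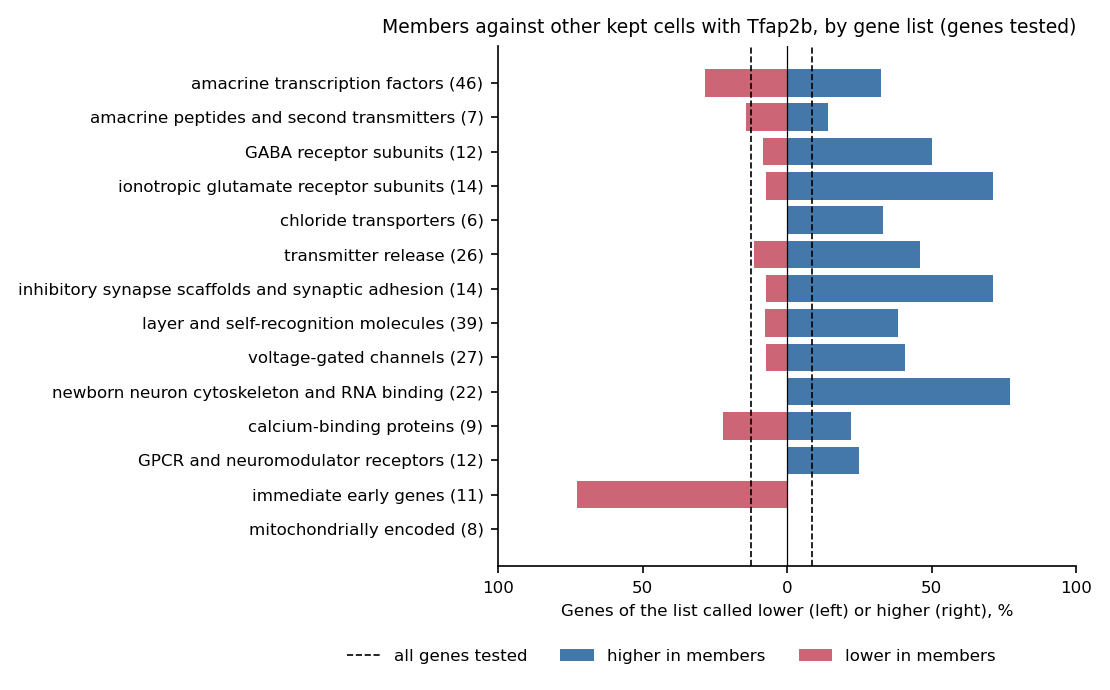
Percentage of the tested genes of each pathway list with at least 6 tested that were higher (right) or lower (left) in members than in the other cells with *Tfap2b* at an edgeR adjusted p under 0.05, with the number tested beside each list. Dashed lines mark all tested genes, 8.7% higher and 12.6% lower. Among these lists, which leave out the cell type markers, glutamate receptor, synaptic adhesion and newborn neuron genes lie furthest to the higher side and immediate early genes furthest to the lower side.

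Of 39 tested genes for layer choice and self-recognition 15 rose and 3 fell (median log2 fold change 0.38). *Fat3*, an atypical cadherin that shapes amacrine dendrites, was at 199 CPM at P0, 209 and 119.8 in the P3 libraries and 214 at P6 in members and 82.3, 63.2, 37.2 and 46.2 CPM in the other *Tfap2b* cells (log2 fold change 1.62 ± 0.15, edgeR adjusted p = 0.000177). Members lay above every library of the other cells. *Dscam*, a self-avoidance gene (log2 fold change 1.56 ± 0.23, edgeR adjusted p = 0.00123), *Unc5c*, a netrin receptor gene (log2 fold change 1.47 ± 0.17, edgeR adjusted p = 0.000335), and *Sema6a*, a semaphorin gene (log2 fold change 1.24 ± 0.23, edgeR adjusted p = 0.00365), rose as well, and the semaphorins *Sema5a* and *Sema5b* fell with log2 fold changes of -1.15 and -1.70. Of 27 voltage-gated channel genes 11 rose and 2 fell (median 0.63). *Kcna1*, a potassium channel gene, was at 39.8 CPM at P0, 33.7 and 23.9 in the P3 libraries and 40.2 at P6 against 13.1, 5.52, 3.52 and 6.51 CPM (log2 fold change 2.20 ± 0.25, edgeR adjusted p = 0.000367), but its log2 fold change was -0.19 after thinning. *Scn3a*, a sodium channel gene of immature neurons, had a log2 fold change of 1.63.

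Of 22 genes for the cytoskeleton and RNA binding of newborn neurons 17 rose and 0 fell, with a median log2 fold change of 0.99. *Celf4*, an RNA-binding gene, was at 1034 CPM at P0, 1956 and 1210.4 in the P3 libraries and 1813 at P6 in members and 613, 701, 542 and 645 CPM in the other *Tfap2b* cells (log2 fold change 1.14 ± 0.12, edgeR adjusted p = 0.000259). *Dcx* and *Stmn2*, both microtubule regulators, had log2 fold changes of 1.76 and 1.43. After thinning to 2000 UMIs the cytoskeleton genes *Stmn1* and *Dpysl3* reversed, to log2 fold changes of -0.11 and -0.19. The P0 level of *Celf4* in members was still above every level of the other cells.

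The genes with the largest rise outside the gate, among those at 20 CPM or more in members of every library and higher in each, were *Kcna1*, *Syt7*, *Tnc*, *AI593442*, *Tfap2e*, *Crabp1*, *Nr4a2*, *Clmn*, *Ccdc88b*, *Cxcl14*, *Rd3l* and *Filip1l*. *Crabp1*, a retinoic acid binding protein gene, was at 872 CPM at P0, 1319.6 and 1028 in the P3 libraries and 1034 at P6 in members and 256, 296, 215 and 195 CPM in the other *Tfap2b* cells (log2 fold change 2.06 ± 0.11, edgeR adjusted p = 1.27e-05). Every member level of *Crabp1* was above every level of the other cells. *Cxcl14*, a chemokine gene, had a log2 fold change of 2.00 and *Tnc*, the matrix protein gene tenascin-C, 2.14, although after thinning *Tnc* was at -0.04 and *Ccdc88b* at -1.33. Among genes outside the gate at 20 CPM or more in the other *Tfap2b* cells of every library, the 12 with the largest fall were *Hmmr*, *Tuba1c*, *Kif11*, *Nusap1*, *Esco2*, *Ccnb2*, *Top2a*, *Tpx2*, *Knl1*, *Sgo1*, *Prc1* and *Ube2c*, which belong mainly to mitosis and DNA replication. Since cells with *Mki67*, a gene of dividing cells, could not be members, these falls are linked with the gate.

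Immediate early genes, which neurons and stressed cells switch on quickly, were lower in members. Of 11 tested, 0 rose and 8 fell, with a median log2 fold change of -1.35. *Fos* was at 15.3 CPM at P0, 28 and 53.4 in the P3 libraries and 173 at P6 in members and 90.9, 243, 115 and 294 CPM in the other *Tfap2b* cells (log2 fold change -1.99 ± 0.32, edgeR adjusted p = 0.00168). *Btg2*, an antiproliferative gene, was at 44.2 CPM at P0, 92.1 and 82.9 in the P3 libraries and 127 at P6 against 134, 387, 247 and 487 CPM (log2 fold change -1.87 ± 0.13, edgeR adjusted p = 3.73e-05), and *Egr1* and *Jun* had log2 fold changes of -1.73 and -1.35. In each library the members were lower, but P0 was the lowest library in both groups for *Fos*, and the P6 members were above the other *Tfap2b* cells of P0. The 8 mitochondrially encoded genes tested had a median log2 fold change of 0.05, and none passed. Median mitochondrial shares in members were 5.41%, 4.82%, 4.05% and 5.19%.

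The gate kept cells with *Mki67*, *Ptf1a*, *Prdm13*, *Lhx1*, *Chat*, *Slc18a3* or *Slc6a9* out of the members and left them among the other *Tfap2b* cells, so falls of progenitor, precursor, horizontal, starburst and glycinergic markers are given as a description of that choice. The same cells were in the comparison for the neuron and synapse genes that rose in members, and their part in those rises was not tested. Marker lists of other cells gave 0 rises and 7 falls of 7 for progenitors, 0 and 8 of 9 for photoreceptors, 0 and 4 of 5 for Müller glia, 0 and 3 of 5 for horizontal cells, 1 and 0 of 8 for ganglion cells, and 0 and 1 of 6 for glycinergic amacrine cells. They gave 0 and 4 of 5 for amacrine precursors, 0 and 1 of 4 for starburst cells, 0 and 1 of 3 for bipolar cells, 0 and 2 of 2 for vascular cells and no calls for the 1 astrocyte and 2 microglia markers tested. Of the amacrine markers outside the gate, 3 of 4 GABAergic and 5 of 6 pan-amacrine genes rose and 0 fell. Calcium-binding genes had 2 rises and 2 falls of 9 (median -0.53), neuromodulator receptor genes 3 and 0 of 12 (median 0.96), and peptide and second-transmitter genes 1 and 1 of 7 (median -0.30). The part of the other-cell transcripts in the differences was not tested.

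The second comparison used 317 cells gated for *Slc6a9*, with *Tfap2b* and at most 1 decarboxylase UMI (26, 138, 58 and 95 cells in the 4 libraries). They had 0 UMIs of *Lhx1*, *Chat*, *Slc18a3* and *Mki67*, but the precursor genes *Ptf1a* and *Prdm13* were allowed in them and not in members. The part of this unlike choice in the differences was not tested. These cells are not a clean glycinergic amacrine population, since they also carried photoreceptor genes: *Crx*, a photoreceptor homeobox gene, was at 44.4, 261, 318 and 301 CPM in them, 16.2 CPM at P0, 38.7 and 66.3 in the P3 libraries and 40.2 at P6 in members and 36.2, 163, 255 and 294 CPM in all other cells. Of 8402 genes, 714 (8.5%) were higher and 693 (8.25%) lower in members by edgeR. All 9 photoreceptor markers tested fell. Without P3 replicate 2 the counts were 491 and 445, and without P3 replicate 1 they were 287 and 284.

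Of the genes outside the gate at 20 CPM or more in members of every library, *Tfap2e* rose by the most, at 34.8 CPM at P0, 126 and 35 in the P3 libraries and 99 at P6 in members and 0, 1.43, 10.7 and 0 CPM in the *Slc6a9* cells (log2 fold change 4.31 ± 0.64, edgeR adjusted p = 0.000694). Members had more in each library, and the *Slc6a9* cells had no UMI at P0 and P6. The 26 *Slc6a9* cells of P0 summed to only 158769 UMIs, so low levels in them rest on very few UMIs. *Lhx9* followed the same direction, with 12.7, 12.9, 33.8 and 12 CPM in the *Slc6a9* cells (log2 fold change 3.31 ± 0.41, edgeR adjusted p = 0.000219), as did *Syt7* (log2 fold change 3.65 ± 0.37, edgeR adjusted p = 7.35e-05), the extracellular matrix gene *Reln* (log2 fold change 3.32 ± 0.35, edgeR adjusted p = 8.24e-05), the cannabinoid receptor gene *Cnr1* (log2 fold change 3.30 ± 0.39, edgeR adjusted p = 0.000180) and the receptor phosphatase gene *Ptprk* (log2 fold change 3.48 ± 0.39, edgeR adjusted p = 0.000125). Against these cells *Slc32a1* was at 19, 53, 39.1 and 60.1 CPM in the *Slc6a9* cells and higher in members (log2 fold change 1.29 ± 0.23, edgeR adjusted p = 0.00206). Both classes of amacrine cell need this vesicular transporter, and it was present in both groups here. *Tfap2a* (log2 fold change 1.88 ± 0.16, edgeR adjusted p = 2.21e-05) was also higher in members, whereas *Tfap2c* was lower (log2 fold change -1.70 ± 0.29, edgeR adjusted p = 0.00183) and *Ebf3*, a glycinergic amacrine factor gene, was lower too (log2 fold change -2.56 ± 0.70, edgeR adjusted p = 0.0254) in 3 of the 4 libraries, while in P3 replicate 2 it was at 33.2 CPM in members and 17.8 CPM in the *Slc6a9* cells. Its relative *Ebf1* did not pass the test (log2 fold change -1.99 ± 0.81, edgeR adjusted p = 0.126).

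Among the 12 genes most reduced in members against the *Slc6a9* cells were *Neurod4*, a basic helix-loop-helix gene of photoreceptor and bipolar development, at 40.1 CPM at P0, 104 and 23.9 in the P3 libraries and 55.7 at P6 in members and 685, 902, 195 and 808 CPM in the *Slc6a9* cells (log2 fold change -3.63 ± 0.19, edgeR adjusted p = 2.17e-06), and *Rbp3*, the photoreceptor retinoid binding protein gene, at 16.8 CPM at P0, 23.9 and 20.3 in the P3 libraries and 37.1 at P6 and 69.8, 226, 231 and 269 CPM (log2 fold change -3.04 ± 0.24, edgeR adjusted p = 1.39e-05). *Ppp1r14a*, a phosphatase inhibitor gene (log2 fold change -4.48 ± 0.55, edgeR adjusted p = 0.000211), *Gamt*, a creatine synthesis gene (log2 fold change -3.59 ± 0.43, edgeR adjusted p = 0.000180), and *Sv2b* (log2 fold change -3.50 ± 0.25, edgeR adjusted p = 9.49e-06) also fell. *Pou3f1*, another POU gene, had a log2 fold change of -3.04. Of 9 immediate early genes tested, 0 rose and 8 fell (median -1.67), and of 22 newborn neuron genes 17 rose and 0 fell (median 1.23).

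Against all other 38536 kept cells, 1807 of 14321 genes (12.6%) were higher in members and 2273 (15.9%) lower by edgeR, with a median log2 fold change of -0.09. Without P3 replicate 1, 811 genes were higher and 1158 lower, and after thinning every cell to 2000 UMIs 732 and 1496. Among genes outside the gate at 20 CPM or more in members of every library, *Tfap2e* again rose by the most, at 2.20, 6.31, 6.82 and 1.37 CPM in the other cells (log2 fold change 4.11 ± 0.48, edgeR adjusted p = 0.000653), followed by *C1ql2*, a secreted C1q-like synaptic protein gene, at 133 CPM at P0, 304 and 122 in the P3 libraries and 291 at P6 in members and 11.3, 15.3, 24.3 and 4.70 CPM in the other cells (log2 fold change 3.92 ± 0.48, edgeR adjusted p = 0.000692), and *Cbln2*, the synaptic organiser cerebellin 2, at 165 CPM at P0, 118 and 105 in the P3 libraries and 139 at P6 and 16.1, 5.30, 21.9 and 2.33 CPM (log2 fold change 3.83 ± 0.48, edgeR adjusted p = 0.000764). For *C1ql2* and *Cbln2* every member level was above every level of the other cells. *Nr4a2* (log2 fold change 3.83 ± 0.32, edgeR adjusted p = 0.000264), *Kcnip1*, a potassium channel interacting protein gene (log2 fold change 3.73 ± 0.47, edgeR adjusted p = 0.000719), and *Tfap2a* (log2 fold change 3.61 ± 0.41, edgeR adjusted p = 0.000550) were also among the 12 largest rises. Among genes outside the gate at 20 CPM or more in the other cells of every library, *Hmmr*, *Kif23* and *Tuba1c*, genes of the mitotic spindle and microtubules, fell by the most, in a contrast where cells with *Mki67* were kept out of the members. The 4 red blood cell markers also fell, with summed levels of 0 to 3.09 CPM in members and up to 160.6 CPM in the other cells.

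Between ages, members at P6 were set beside members at P0 as single libraries with no test. A gene was counted when the ratio was 2-fold or more and its UMIs in the members of P0 and P6 summed to at least 50, and 646 of 7658 genes (8.44%) were higher and 422 (5.51%) lower at P6. Both P3 libraries lay between P0 and P6 for 342 and 174 of these. With the members that held 5 or more UMIs of the other-cell markers left out, 334 of the 646 and 245 of the 422 were still counted. In the other kept cells, 107 and 74 of them also changed 2-fold in the same direction. The 2 P3 libraries themselves differed 2-fold for 1181 of 5477 genes (21.6%), against 1068 of 7658 (13.9%) between P6 and P0. Libraries of the same age thus differed in a larger share of genes than the P0 and P6 libraries did. The shares are not strictly alike, since the P3 share covers only genes that also had at least 50 UMIs in the P3 members, with a small constant added to each level.

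Zinc-finger homeobox genes were among those lower at P6. *Zfhx3* was at 922 CPM at P0, 143 and 459 in the P3 libraries and 18.6 at P6 (log2 ratio of P6 to P0 -5.63, 95% counting interval -7.08 to -4.51), and had a UMI in 453 of 554, 36 of 194, 52 of 81 and 4 of 58 members. In the other cells its log2 ratio was -2.31. *Zfhx4* was at 176 CPM at P0, 26.3 and 73.7 in the P3 libraries and 12.4 at P6 (log2 ratio -3.83, 95% counting interval -5.71 to -2.47), with -0.20 in the other cells. In both genes P3 replicate 2 sat nearer to P0 than P3 replicate 1 did. *Tshz1*, a teashirt zinc-finger gene, had 179.7 CPM at P0, 77.3 and 88.4 in the P3 libraries and 27.8 at P6 (log2 ratio -2.69, 95% counting interval -3.83 to -1.76, 0.10 in the other cells), and *Pbx3*, a TALE homeobox gene, 102 CPM at P0, 37 and 36.8 in the P3 libraries and 12.4 at P6 (log2 ratio -3.05, 95% counting interval -4.93 to -1.68, -0.98 in the other cells). *Pou3f1* had a log2 ratio of -3.96 in members and -2.77 in the other cells. The other genes lower at P6 that the rule named were *Gsto1*, *Pcdh17*, *Mtus2*, *Gpc6* and *Epb41l4aos*, with log2 ratios from -4.28 to -2.33.

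**Figure D4:**
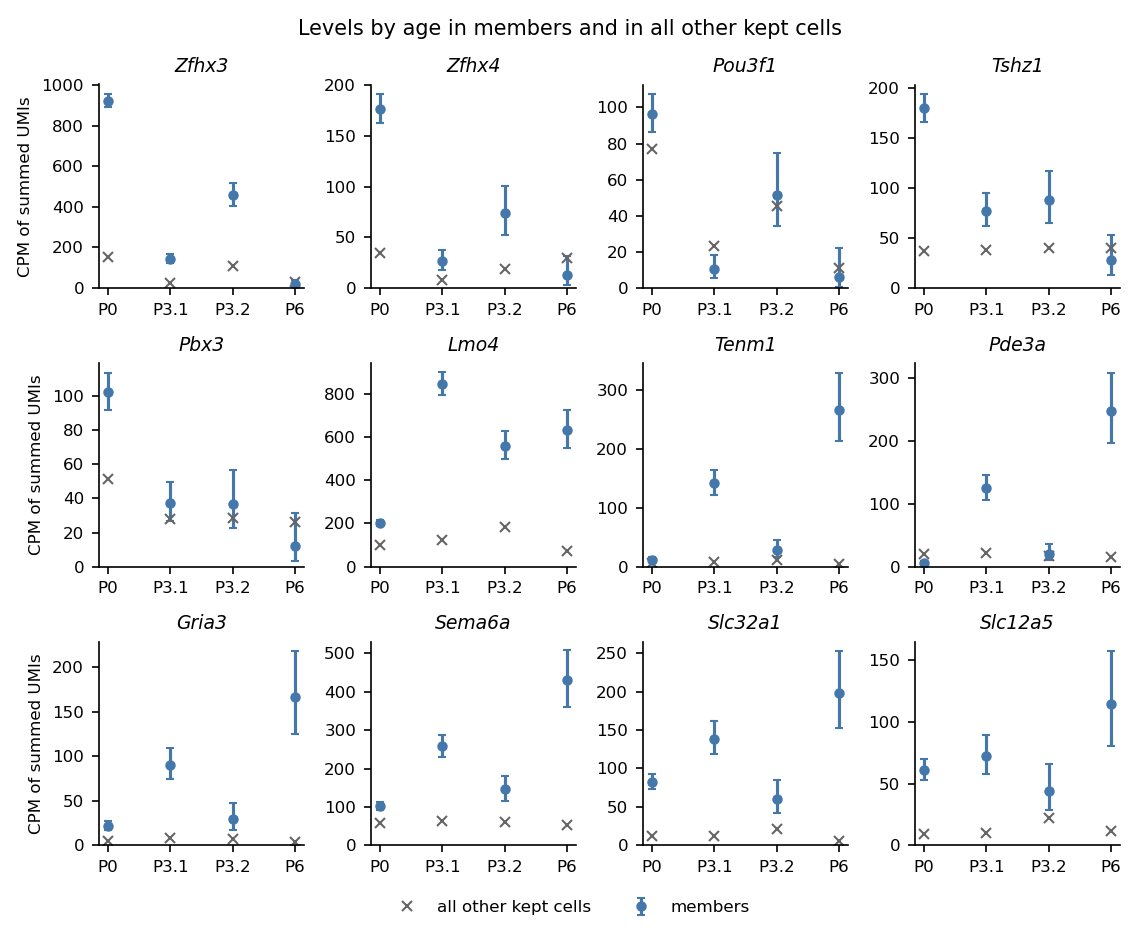
CPM of summed UMIs of 12 genes by library in members (circles, bars are 95% Poisson intervals for counting error) and in all other kept cells (crosses). *Zfhx3*, *Zfhx4*, *Pou3f1*, *Tshz1* and *Pbx3* were highest in P0 members and lowest in P6 members, *Tenm1*, *Pde3a*, *Gria3* and *Sema6a* were highest in P6 members, and *Lmo4* was highest in P3 replicate 1.

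Of 26 genes of layer choice and self-recognition with enough UMIs, 8 were higher and 5 lower at P6. Counts were 2 and 0 of 12 for inhibitory scaffolds and synaptic adhesion and 6 and 0 of 21 for transmitter release. For ionotropic glutamate receptors they were 2 and 1 of 7, beside 8.44% higher and 5.51% lower over all genes. *Tenm1*, a teneurin adhesion gene, was at 11.8 CPM at P0, 142 and 27.6 in the P3 libraries and 266 at P6 in members (log2 ratio 4.50, 95% counting interval 3.94 to 5.08) and had a log2 ratio of -0.67 in the other cells. *Pde3a*, a phosphodiesterase gene, was at 6.19 CPM at P0, 124 and 20.3 in the P3 libraries and 248 at P6 (log2 ratio 5.32, 95% counting interval 4.61 to 6.09), with a UMI in 21 of the 58 P6 members. *Gria3* was at 22.1 CPM at P0, 90.5 and 29.5 in the P3 libraries and 167 at P6 (log2 ratio 2.92, 95% counting interval 2.39 to 3.44, -0.30 in the other cells). For these 3 genes P3 replicate 1 lay above P3 replicate 2, which was nearer to P0. *Slc32a1* was higher at P6 than at P0 by a log2 ratio of 1.27, 95% counting interval 0.85 to 1.67, while the other cells had -1.16, but its level in P3 replicate 2 was below that at P0. *Slc12a5* did not reach 2-fold (log2 ratio 0.90, 95% counting interval 0.36 to 1.41). *Sema6a* was at 102 CPM at P0, 258 and 146 in the P3 libraries and 430.1 at P6 (log2 ratio 2.07, 95% counting interval 1.77 to 2.36), and *Nfix*, *Nfib* and *Tcf4* were higher at P6 in members with log2 ratios of 4.83, 3.17 and 2.58 and in the other cells with 2.19, 1.51 and 1.20. Of the 58 P6 members, 13 had a UMI of *Nfix* and 16 of *Nfib*. Müller glia and progenitor markers were also higher in P6 members than in P0 members, and the part of such transcripts in these ratios was not tested.

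Some large ratios rest on 1 cell or concern marker genes of other cell types. *Cartpt*, a neuropeptide gene, was at 0.589 CPM at P0, 32.1 and 103 in the P3 libraries and 696 at P6, but 199 of its 225 UMIs at P6 (88.4%) and 45 of 56 in P3 replicate 2 were in 1 member each. At P6, 78 of 83 UMIs of *Crip1* and 45 of 47 UMIs of the cone gene *Pde6h* were also in 1 member each. *Rlbp1*, a Müller glia gene, was at 0.884 CPM at P0, 14 and 27.6 in the P3 libraries and 244 at P6 with a UMI in 11 of 58 P6 members, beside 22.2, 145, 44 and 324 CPM in the other cells, and *Crym*, *Sparc* and *Mt1* were also higher at P6 (log2 ratios 4.78, 4.45 and 4.37). The immediate early genes *Fos*, *Jun*, *Egr1*, *Ier2* and *Btg2* were also higher at P6, with log2 ratios of 3.50, 2.15, 2.04, 1.77 and 1.52, but with the members that held 5 or more UMIs of the other-cell markers left out those of *Egr1* and *Ier2* were -1.63 and -1.16.

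**Figure D5:**
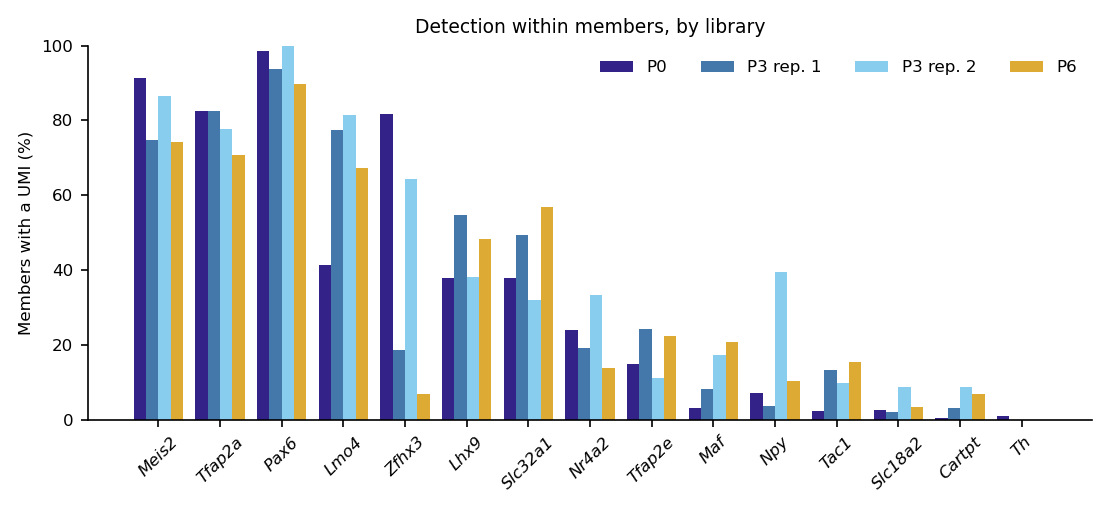
Percentage of members of each library with at least 1 UMI of 15 genes. *Meis2*, *Tfap2a* and *Pax6* were found in most members of every library and *Zfhx3* in 81.8% at P0 and 6.90% at P6. Peptide and second-transmitter genes were found in up to 39.5% of members, for *Npy* in P3 replicate 2.

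Members also differed from each other in the genes they carried. Most members had UMIs of *Meis2* (74.1% to 91.3% over the libraries), against 23.7% to 62.5% of kept cells without *Tfap2b*, whose median depth was 3951 to 5555.5 UMIs. *Lhx9* was found in 375 members, *Nr4a2* in 205 and *Tfap2e* in 151. *Lhx9* was in 37.9%, 54.6%, 38.3% and 48.3% of members, against 1.71% to 7.02% of cells without *Tfap2b*, and *Nr4a2* in 24.0%, 19.1%, 33.3% and 13.8%, against 0.652% to 1.72%. Both *Lhx9* and *Nr4a2* were detected in 86 members, which is 22.9% of those with *Lhx9* and 42.0% of those with *Nr4a2*. These shares are close to the 23.1% of all members with *Nr4a2* and the 42.3% with *Lhx9*. *Lmo4* was found in 281 of the 375 members with *Lhx9* and in 484 of all 887, pooled over libraries in which its share of members ran from 41.3% at P0 to 81.5% in P3 replicate 2.

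Peptide genes, which mark subtypes of GABAergic amacrine cells, were found in few members, apart from *Npy* in P3 replicate 2. *Tac1*, the substance P precursor, was at 6.77 CPM at P0, 198 and 33.2 in the P3 libraries and 77.4 at P6 and in 13, 26, 8 and 9 members (2.35%, 13.4%, 9.88% and 15.5%), against 2.96%, 0.763%, 5.07% and 0.302% of cells without *Tfap2b*. In P3 replicate 1 and at P6 the member share was well above that background, at P0 it was not. It was higher in members than in other *Tfap2b* cells (log2 fold change 1.64 ± 0.32, edgeR adjusted p = 0.00426), a call that was lost without P3 replicate 1. *Npy*, the neuropeptide Y gene, was in 40, 7, 32 and 6 members, and its shares were 7.22%, 3.61%, 39.5% and 10.3%, beside 10.9%, 8.67%, 19.3% and 9.20% of cells without *Tfap2b*. Apart from P3 replicate 2, the *Npy* shares were near or below that background. *Slc18a2*, the vesicular monoamine transporter gene, was in 15, 4, 7 and 2 members (2.71%, 2.06%, 8.64% and 3.45%), beside 3.50%, 0.643%, 5.72% and 0.644% of cells without *Tfap2b*, and at P0 its share was below that background. *Th*, the tyrosine hydroxylase gene of dopaminergic amacrine cells, was in 5 members, all at P0. The genes *Cck*, *Crh* and *Slc17a8* had 0 UMIs in the 887 members, which allows a share of up to 0.338% of members with a UMI.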

How the data were processed

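Single-cell 10x libraries of mouse retina were analysed from the raw UMI counts per gene and barcode that the authors deposited, made with Cell Ranger on mm10 per the processing notes, and not normalized. Version 6.1.2 stands in the headers of the newer files (P0, P6, E14 and P3 replicate 1), and the version for E16 and P3 replicate 2, which use an older gene annotation, is not given in the sources used here. Genes were joined by Ensembl identifier over the 27040 identifiers in both annotations.

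Cells were kept with 300 to 6000 genes, a higher upper limit than the 4000 of the study's methods, and at most 15% mitochondrial UMIs. The members and gene lists were chosen with earlier results of these data known. Groups of samples came from the labels, and no sample was left without a group. UMI counts were summed per library over members and over each comparison group, so cells were never replicates. The sums were tested in edgeR 4.0.16 (R 4.3.3) with its default low-count filter, TMM scaling, the quasi-likelihood test and the library as a block, with Benjamini-Hochberg adjustment over all genes tested and a threshold of 0.05. Each pair of sums came from the same library, and after removing group means their correlation was 0.200 to 0.687. The p-values measure the spread between 4 libraries of different ages, each a pool of retinas. The 10 gate genes were in the fit but in no count of calls. Genes named in each comparison were the 12 largest and 12 smallest fold changes that passed, went the same way in all 4 libraries and reached 20 CPM in the higher group of every library, and for ages the 10 largest and 10 smallest ratios with both P3 libraries between and at least 50 CPM at the higher age. A few genes are not reported here. Further genes of the lists were named after their values had been seen. Intervals are 95% and cover counting error only.

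Tested on simulated data, the test recovered 91, 89 and 82 of 100 genes changed 4-fold and 47, 36 and 35 of 100 changed 2-fold for the other *Tfap2b* cells, the *Slc6a9* cells and all other cells, with 7, 3 and 3 false calls. Every simulated gene had the same spread, and unchanged genes had the same level in both groups of a library. These numbers therefore describe that setting and not the error in the real libraries. Doublets were called in Python 3.11.15 with scikit-learn 1.9.0 from 30 neighbours and 2 simulated doublets per cell at 0.8% per 1000 cells, and were left out only in an alternative. The alternatives were a fit with no replicate block, DESeq2 1.42.0, all genes kept whatever their counts, each library left out, fewer than 4000 genes, no called doublets, cells thinned to 2000 UMIs, and other decarboxylase limits. For ages they also included a minimum of 200 UMIs, means over cells, and 2 alternatives chosen after seeing the data: members with 5 or more UMIs of other-cell markers left out, and at least 3 UMIs of *Tfap2b*.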

Additional observations from a re-analysis of the deposited data

Results flagged for a closer look

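The embryonic libraries lie outside the comparisons of members, and some of their cells passed the same gate. At E14 there were 5 such cells among 15553 kept cells (0.0321%) and at E16 16 among 2714 (0.590%), both above the 3 counts that a count of 0 allows. Of the cells with *Tfap2b* and at least 2 decarboxylase UMIs, 52 at E14 and 208 at E16, the excluded genes removed 47 (90.4%) and 192 (92.3%), against 44.2% at P0, 51.3% and 69.0% in the P3 libraries and 56.1% at P6. *Prdm13* was present in 37 of those removed at E14 and 105 at E16, *Ptf1a* in 36 and 134, and the proliferation gene *Mki67* in 7 and 148.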

How the results depend on the processing

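With no replicate block the test called 204 genes higher and 275 lower in members than in other *Tfap2b* cells, 230 and 186 against the *Slc6a9* cells and 1021 and 1073 against all other cells. After thinning to 2000 UMIs, which leaves fewer members and counts former members in the comparison group, the counts were 56 and 279, 48 and 72, and 732 and 1496, and the median over all genes against all other cells moved to -0.26. With 3 or more decarboxylase UMIs, 707 genes were higher than in other *Tfap2b* cells, and DESeq2 called 475 genes higher than in the *Slc6a9* cells. Leaving out 1 library gave 444 to 1244 higher and 736 to 1339 lower genes against other *Tfap2b* cells, 287 to 772 and 284 to 672 against the *Slc6a9* cells, and 811 to 1814 and 1158 to 2314 against all other cells, the lowest each time without P3 replicate 1. Of 187 called genes of the lists and the rule for names, 177 kept their call against other *Tfap2b* cells with DESeq2, 136 without P3 replicate 1, and 164 without P3 replicate 2. After thinning 65 of 174 did, and with no replicate block 61 of 186. Thinning reversed *Kcna1* (-0.19), *Tnc* (-0.044), *Ccdc88b* (-1.33), *Maf* (-0.39), *Grik5* (-0.0014), *Rab3c* (-0.14), *Cplx1* (-0.18), *Lhfpl4* (-0.34), *Scn3b* (-0.37), *Cacna1b* (-0.15), *Stmn1* (-0.11, and -0.030 against all other cells), *Dpysl3* (-0.19) and *Necab1* (-0.35). With at least 200 UMIs a gene, 106 genes were higher and 118 lower at P6. Of the age ratios of named and list genes, 46 moved beyond their counting interval and 4 reversed when P6 was set against the P3 libraries in place of P0, with 30 inside it, and 20 moved and 2 reversed, with 38 inside, without the members holding other-cell markers. Against the P3 libraries, the P6 ratio of *Lmo4* was -0.15, of *Maf* -0.37, of *Sox2* -0.018 and of *Lrrtm1* -0.13. *Sox2* was at -0.43 with at least 3 UMIs of *Tfap2b*, and without the members holding other-cell markers *Egr1* was at -1.63 and *Ier2* at -1.16. The cause of these changes was not tested, in the thinned fits or in the others. The 58 members at P6, with 326006 UMIs in all, limit what can be seen of genes with low counts at that age.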
